A study of Mus musculus with 2 samples.

Results

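A set of genes of glucose uptake, glycolysis, lactate export and the response to low oxygen was described in single mouse leukemia cells. The members were Slc2a1, Hk2, Pfkp, Aldoa, Pgk1, Eno1, Ldha, Slc16a3, Pdk1 and Bnip3, which are 10 of the 31053 genes of the count tables and were matched by symbol. The set was chosen with measured values of these libraries in view, and Slc16a3 was selected on its low ratio between them, so the ratios below describe the genes and support nothing beyond that. All 10 genes were among the 10527 genes that had at least 100 unique molecular identifiers (UMIs, each a captured transcript counted once) over both libraries.

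The cells carried AML1-ETO9a (AE9a), a shortened fusion protein that drives acute myeloid leukemia, and they also carried GFP, floxed Usp18 and UBCER-Cre, a recombinase active in all tissues once tamoxifen is given. Both groups shared these alleles. Recipient mice that had become sick received oil or tamoxifen, and GFP+ Lin- c-Kit+ splenocytes were sorted 3 days after the first injection, with 8000 cells targeted for each of the 2 libraries. The labels gave Usp18f/f cells for the oil library and Usp18delta/delta cells for the tamoxifen library, whereas the treatment text of the same labels named Usp18+/f cells and a heterozygous depletion. Besides its heterozygous comparison, the paper described a single-cell comparison of Usp18f/f and Usp18delta/delta cells, the genotypes of the former labels. Each group was 1 library of cells with no label that ties a cell to a mouse, and the number of mice behind these libraries was not given in the sources used here. The age and strain of the mice are not in the labels.

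Glycolysis breaks glucose down to pyruvate and yields ATP without oxygen. When pyruvate is turned into lactate rather than burned in mitochondria, the cell must export the lactate together with a proton, and many blood cancers and dividing progenitors run glucose through this route. Low oxygen stabilizes the transcription factor HIF-1, which binds DNA as a dimer of HIF-1α and ARNT and raises the transcription of transporters, glycolytic enzymes, Pdk1 and Bnip3.

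After filtering, 6838 cells of the library labelled oil and 6472 of the library labelled tamoxifen remained, with 66045700 and 60661486 UMIs and medians of 8622.5 and 8209.5 UMIs per cell. The barcode sequences of the kept cells overlapped in 12 cases between the libraries. Ribosomal protein genes took 24.4% of UMIs in the oil library and 28.1% in the tamoxifen library, while the median mitochondrial share was 6.82% and 6.84%. Usp18, the targeted gene, was counted 371 times in the oil library (5.62 CPM, the count scaled to a common library total) and 933 times in the tamoxifen library (15.4 CPM). The log2 ratio of tamoxifen over oil was 1.45 (95% interval 1.28 to 1.63), which goes against the label of a deletion. An exchange of the libraries, 3′ reads outside the deleted exons and cells that kept the gene cannot be told apart by the Usp18 counts. The paper reported higher Isg15 on Usp18 loss in its heterozygous single-cell libraries. How interferon genes bear on these readings was not tested. An exchange would turn the sign of every ratio given below, so that Slc16a3 would be 2.06-fold higher after tamoxifen. The groups are therefore named as the library labelled oil and the library labelled tamoxifen. Markers of neutrophils summed to 0.33 and 0.31 CPM with 6 of 10 genes at 0 in both libraries, and those of T cells to 0 and 0.25 CPM with 4 of 8 at 0. Those of B cells summed to 0.23 and 0.20 CPM and those of endothelial cells to 1.32 and 1.76 CPM. Macrophage markers were higher, at 13.7 and 18.7 CPM, with 6 of 12 genes measured and Cx3cr1 the most counted. Mast cell genes were present in both libraries (12 of 12 detected, summed 3282 and 3016 CPM). Erythroid genes were present as well (11 of 11 detected, 6416 and 8061 CPM). The 8 progenitor genes, which include Kit, summed to 645 and 685 CPM. Only 4 of the 8 had enough UMIs to count as measured, and Elane was at 0 in both libraries. Gata2 had the largest share of the progenitor sum (40.9%), so the sum is not a measure of Kit alone. How far these programmes bear on the genes below was not tested.

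With 1 library per group no difference has a replicate check, and no test was run. All intervals are at 95%, cover counting error only, and would be wider if mice or libraries could be compared. Counts of 3′ ends do not scale with transcript length, so levels of different genes are set side by side in CPM. In pooled counts, fewer expressing cells and less RNA per cell cannot be told apart.

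The promoters of the genes are shown first, since HIF-1 binds the core letters ACGTG or GCGTG and the set was assembled around the low oxygen response. Each line gives the 250 bases before an annotated start of RefSeq, build GRCm38.p6, read 5′ to 3′ on the strand of the gene, with every match to ACGTG or GCGTG on either strand in capitals. Printed are Slc16a3 for its low ratio, Pgk1 and Ldha as enzymes that were lower, and Hk2 as the gene that was not lower. The regions are chr11:120948817-120949066 (plus strand), chrX:106186850-106187099 (plus strand), chr7:46845554-46845803 (plus strand) and chr6:82774455-82774704 (minus strand).
Slc16a3: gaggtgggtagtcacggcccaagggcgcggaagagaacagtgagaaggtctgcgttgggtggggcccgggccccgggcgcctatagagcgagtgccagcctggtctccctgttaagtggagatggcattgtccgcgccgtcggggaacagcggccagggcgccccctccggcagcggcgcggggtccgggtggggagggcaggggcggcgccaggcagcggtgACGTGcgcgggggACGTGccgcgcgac
Pgk1: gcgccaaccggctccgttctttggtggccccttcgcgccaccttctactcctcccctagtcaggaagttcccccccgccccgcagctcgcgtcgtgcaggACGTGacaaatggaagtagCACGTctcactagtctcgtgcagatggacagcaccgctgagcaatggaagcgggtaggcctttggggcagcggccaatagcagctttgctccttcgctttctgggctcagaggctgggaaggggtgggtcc
Ldha: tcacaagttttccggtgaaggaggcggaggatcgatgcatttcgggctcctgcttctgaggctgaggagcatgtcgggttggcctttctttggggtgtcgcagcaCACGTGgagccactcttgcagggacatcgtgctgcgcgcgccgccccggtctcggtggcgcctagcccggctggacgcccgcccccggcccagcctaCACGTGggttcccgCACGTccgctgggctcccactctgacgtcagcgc
Hk2: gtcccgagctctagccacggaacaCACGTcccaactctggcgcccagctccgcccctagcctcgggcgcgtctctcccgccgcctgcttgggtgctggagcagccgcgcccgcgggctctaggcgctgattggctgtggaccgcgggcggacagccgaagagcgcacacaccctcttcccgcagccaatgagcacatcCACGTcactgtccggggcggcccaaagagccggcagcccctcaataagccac

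The Slc16a3 window held 2 matches, which lay 27 and 14 bases before the start. Pgk1 held 2 matches at 150 and 131 bases, and Hk2, the gene that was not lower, also held 2, at 226 and 52 bases. The first Ldha window held 5 matches, of which 4 came from the palindrome CACGTG, which matches on both strands and is also the letters read by the E-box factors such as MYC. All 10 genes had a match in at least 1 of their 16 annotated windows, and 14 of the 16 windows had one. Of all genes with a promoter in the table, 41.5% had a match, and of the measured genes 63.1%. By window the shares were 38.6% of all windows and 57.2% of those of measured genes. The windows of the 10 genes were also richer in G and C, with a median of 66.8% against 60% for measured genes and 52.4% for all. The letters are a description of these windows and show neither binding nor a cause of the ratios.

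The sum of the 10 genes was 2347 CPM in the library labelled oil and 1734 CPM in the library labelled tamoxifen. Of the 10 genes, 9 had a lower level in the tamoxifen library and Hk2 had a slightly higher one. The counting interval of the log2 ratio lay below 0 for 8 of the 10 genes and above 0 for none, where 39.8% of all genes tested had an interval below 0 and 19.3% one above it. Abundant genes have narrow intervals, and of the 7994 genes with at least 1000 UMIs, 3794 had one below 0. Past a 1.5-fold difference, 1 of 10 genes was lower (Slc16a3) and 0 were higher, against 1.27% and 2.09% of all genes tested. The median log2 ratio of the 10 genes was −0.40, and −0.39 without Slc16a3, beside a median of −0.06 for all genes. When the counts were scaled to library composition instead of the total (TMM), all ratios moved up by 0.07, the interval of Pdk1 then included 0, and 88 genes were lower and 295 higher past 1.5-fold in place of 134 and 220.

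**Figure D1:**
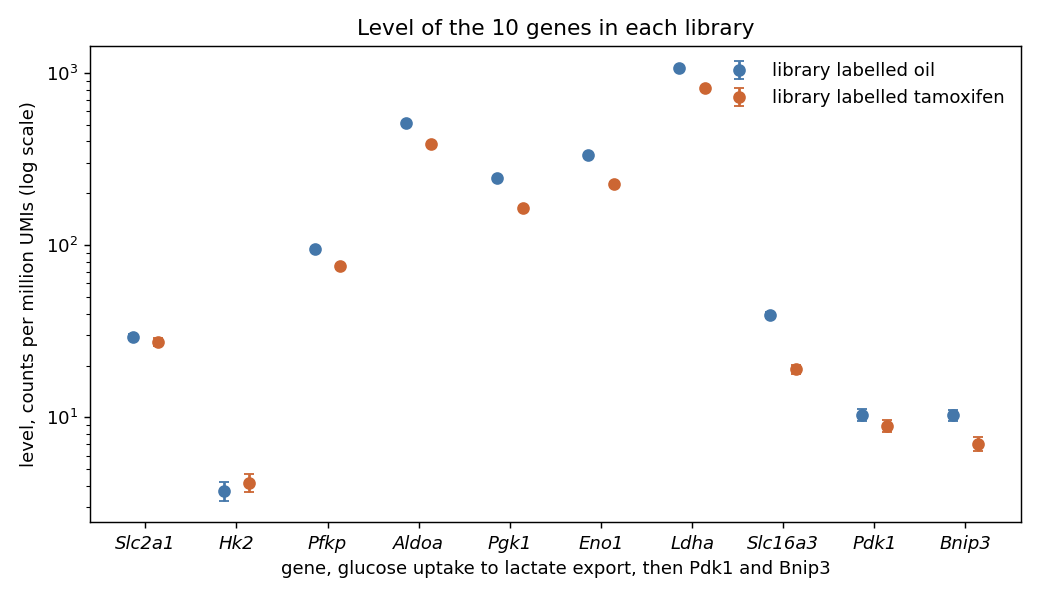
Level of each of the 10 genes in CPM on a log axis, in the library labelled oil (blue) and the library labelled tamoxifen (orange), with 95% Poisson intervals that are often smaller than the points. The levels run from 3.74 and 4.17 CPM for Hk2 to 1066 and 815 CPM for Ldha, and the point of the tamoxifen library sits lower for every gene except Hk2.

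Glucose enters these cells through facilitative transporters of the Slc2a family. Slc2a1, which encodes GLUT1, a glucose transporter of many tumours, had 29.2 CPM in the oil library and 27.4 CPM in the tamoxifen library. Its pooled log2 ratio was −0.09 (−0.19 to 0.003), an interval that held 0, and the gene sat in the middle of all ratios at percentile 44.3. In the cell cycle phases compared below, its level was lower in the tamoxifen library in 3 of 3, with 2 intervals below 0. Slc2a3, the high affinity transporter GLUT3, was the more abundant of the pair at 173.5 and 159.4 CPM, with a log2 ratio of −0.12 (−0.16 to −0.08). Of 11 glucose transporter genes 5 were measured, and 2 of them had an interval below 0 (Slc2a3 and Slc2a8, −0.18), 2 one above 0 (Slc2a9, 0.12, and Slc2a12, 0.63) and Slc2a1 neither. The shares over all genes tested were 39.8% below 0 and 19.3% above it. Slc2a12 rested on 73 and 104 UMIs. In pooled counts, uptake genes as a group thus sat near the median of all genes.

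Hexokinases trap glucose as glucose 6-phosphate. Hk2, the inducible hexokinase bound to mitochondria, was the rarest of the 10 genes, with 247 UMIs (3.74 CPM) in the oil library and 253 UMIs (4.17 CPM) in the tamoxifen library and a log2 ratio of 0.16 (−0.10 to 0.42). Hk1, the constitutive form, was far more abundant at 181.4 and 170.4 CPM and had a log2 ratio of −0.09 (−0.13 to −0.05). Neither hexokinase moved by 1.5-fold, and the interval of Hk2 allows a difference in either direction.

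Phosphofructokinase commits the sugar to glycolysis. Pfkp, the platelet form, had 94.8 CPM in the oil library and 75.3 CPM in the tamoxifen library, a log2 ratio of −0.33 (−0.39 to −0.28). The liver form Pfkl went from 46.7 to 30.4 CPM, a log2 ratio of −0.62 (−0.70 to −0.54), while the muscle form Pfkm stood at 22.9 and 25.4 CPM, 0.15 (0.05 to 0.25). The 3 forms of this 1 enzyme therefore did not share a direction. Pfkp was the most abundant form in both libraries.

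The enzymes that follow were the abundant ones. Aldoa, the aldolase that splits the sugar into trioses, had 514 CPM in the oil library and 385 CPM in the tamoxifen library, a log2 ratio of −0.42 (−0.44 to −0.39). Pgk1, phosphoglycerate kinase, which makes the first ATP of the route, stood at 246.5 and 165 CPM, with a log2 ratio of −0.58 (−0.61 to −0.54) that corresponds to 1.49-fold and so missed the 1.5-fold limit by little. Eno1, the enolase, had 333.5 and 227.4 CPM with a log2 ratio of −0.55 (−0.58 to −0.52). These genes were lower by similar amounts and lay within the lowest 5% of all ratios, at percentiles 4.89, 1.34 and 1.58. Reads of retrocopies cannot always be told from those of the parent gene. Eno1b, an Eno1 copy, had 392 and 181 UMIs, under 2% of those of Eno1, and the Aldoa copies Aldoart1 and Aldoart2 and a further Aldoa identifier had at most 15 UMIs each in a library.

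Ldha, the lactate dehydrogenase subunit that reduces pyruvate to lactate, was the most abundant of the 10 genes, with 1066 CPM in the oil library and 815 CPM in the tamoxifen library. Its log2 ratio was −0.39 (−0.40 to −0.37). Ldhb, the subunit of the heart form, had 0 UMIs in both libraries, with upper limits of 0.056 CPM and 0.061 CPM. Ldhc, the subunit known from sperm, was low but higher in the tamoxifen library, at 4.74 and 9.07 CPM with a log2 ratio of 0.94 (0.73 to 1.14).

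Across the wider list of 29 glycolytic enzyme genes, 19 were measured. The median log2 ratio was −0.29, or −0.24 over the 13 that are not among the 10 genes, and 14 of the 19 had an interval below 0 and 3 one above it, beside 39.8% and 19.3% of all genes tested. Past 1.5-fold, which 1.27% of all genes passed downward and 2.09% upward, Pkm (199.8 and 128.2 CPM, −0.64), Pfkl and Tpi1 (407.7 and 271.2 CPM, −0.59) were lower and Ldhc was higher. With TMM, with DESeq2 size factors or on totals without mitochondrial and ribosomal protein genes, 0 enzymes were lower past 1.5-fold. Pkm makes pyruvate and ATP, and Tpi1 interconverts the trioses. Bpgm, which makes the regulator of hemoglobin and is strong in red cell precursors, was higher at 37.7 against 26.7 CPM (0.50). Gapdh, the most abundant of the enzymes, had 2418 and 1982 CPM, a log2 ratio of −0.29.

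**Figure D2:**
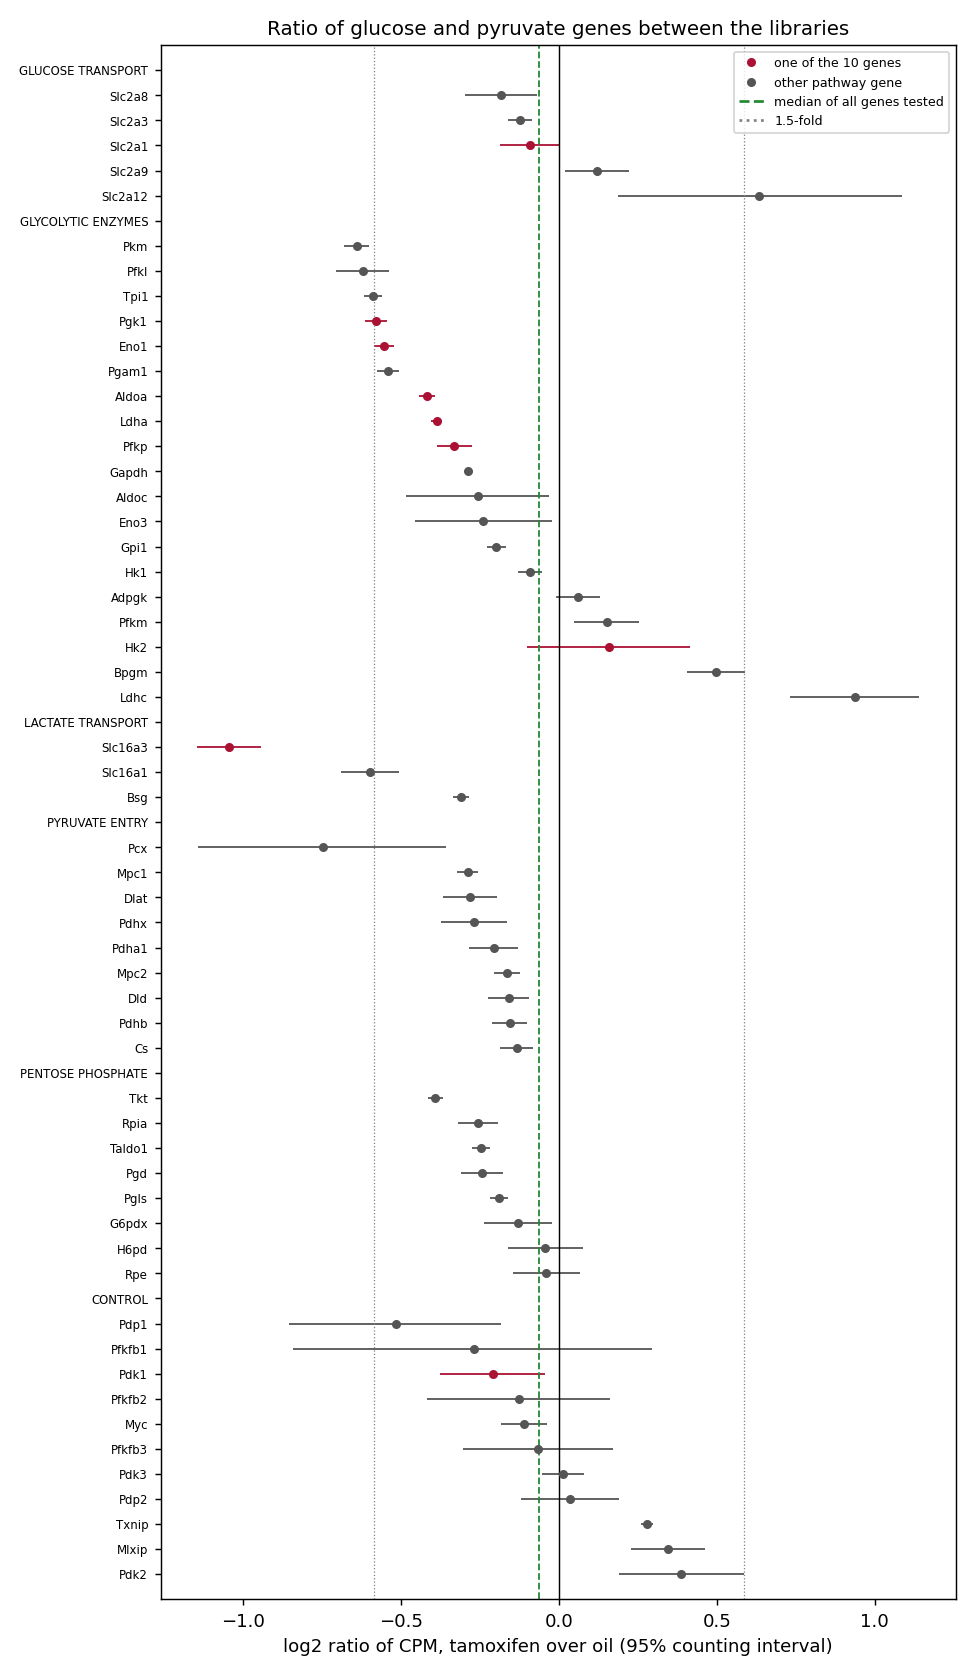
Log2 ratio of CPM, tamoxifen over oil, for each measured gene of 6 lists, with 95% counting intervals as bars. Red points are among the 10 genes, the dashed line is the median of all genes tested and the dotted lines are 1.5-fold. Slc16a3 lies farthest to the left at −1.04, most enzymes from aldolase to pyruvate kinase lie between the dashed line and the left dotted line, and all 9 pyruvate entry genes lie below 0.

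Slc16a3 encodes MCT4, a proton-linked carrier with high capacity that cells running strong glycolysis use to export lactate. It was counted 2592 times in the library labelled oil (39.3 CPM, 37.8 to 40.8) and 1155 times in the library labelled tamoxifen (19.0 CPM, 18.0 to 20.2). The log2 ratio was −1.04 (−1.15 to −0.94), a 2.06-fold difference. Among the 6001 genes with at least 20 CPM in either library it had the 6th lowest ratio. Pgk1, the next lowest of the 10 genes, had rank 42 among the same genes.

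Both the share of cells with a Slc16a3 UMI and the mean UMIs of such cells were lower in the tamoxifen library. At counts this low a lower mean level lowers both, so they do not separate fewer expressing cells from less RNA per cell. With every cell thinned to 3000 UMIs, 11.6% of 6330 oil cells (10.9 to 12.5) and 5.53% of 6127 tamoxifen cells (4.97 to 6.14) had at least 1 UMI, and 508 and 345 shallower cells were left out. Without thinning the shares were 26.0% and 14.1%. Cells with 3 or more UMIs, also without thinning, were 2.78% of the oil library and 0.65% of the tamoxifen library. The unthinned mean over cells with a UMI was 1.46 and 1.26. Slc2a1, a transporter of like abundance, differed less, with thinned shares of 8.07% and 7.44%. No cell type in this sort is known to lack Slc16a3, so a background share from free RNA could not be read from these cells.

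The other lactate transport genes were lower as well. Slc16a1 encodes MCT1, which carries lactate in either direction, and had 38.3 CPM in the oil library and 25.3 CPM in the tamoxifen library, a log2 ratio of −0.60 (−0.69 to −0.50). Bsg encodes basigin, the chaperone that brings both carriers to the membrane, and had 396.5 and 320 CPM (−0.31). Of 8 genes on this list 3 were measured, and 3 of 3 had an interval below 0, as did 39.8% of all genes tested. Among the 7994 genes with at least 1000 UMIs over both libraries, 3794 had one. In the oil library Slc16a1 and Slc16a3 were at nearly the same level, whereas in the tamoxifen library Slc16a3 was the lower of the pair.

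Pdk1 encodes a kinase that switches off pyruvate dehydrogenase and so keeps pyruvate out of the mitochondria. It had 10.3 CPM in the oil library and 8.92 CPM in the tamoxifen library, a log2 ratio of −0.21 (−0.37 to −0.04). The other kinases of the family did not follow it, since Pdk2 was at 5.94 and 7.76 CPM (0.39) and Pdk3, the most abundant, at 59.6 and 60.2 CPM (0.01). Of the 9 genes that bring pyruvate into the mitochondria or act on it there, 9 had an interval below 0, beside 39.8% of all genes tested. Their median was −0.21, beside −0.06 for all genes. Pcx, pyruvate carboxylase, was lowest at −0.75 on 157 and 86 UMIs, followed by the carrier subunit Mpc1 (−0.29) and Dlat (−0.28). The genes nearest 0 were Cs (−0.13), Pdhb (−0.16) and Dld (−0.16).

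Among 11 measured genes that control the route, 3 intervals lay below 0 and 3 above, beside 39.8% and 19.3% of all genes tested. Pdp1, a phosphatase that reactivates pyruvate dehydrogenase, was lowest (−0.52), followed by Pfkfb1 (−0.27, interval −0.84 to 0.30) and Pdk1. Txnip, which restrains glucose uptake, was at 619.5 and 752 CPM (0.28), and Mlxip, a glucose-sensing transcription factor that drives Txnip, at 16.5 and 20.99 CPM (0.35). In the pentose phosphate pathway, which branches from glucose 6-phosphate, 8 of 8 genes were measured and the median was −0.22. Of these genes 6 had an interval below 0, beside the same 39.8% of all genes tested. The lowest were Tkt (−0.39), Rpia (−0.26) and Taldo1 (−0.25), and the highest Rpe (−0.04), H6pd (−0.04) and G6pdx (−0.13).

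Bnip3 encodes a mitochondrial protein that starts mitophagy and is a classic gene of the low oxygen response. It had 10.3 CPM in the oil library and 7.04 CPM in the tamoxifen library, a log2 ratio of −0.55 (−0.73 to −0.37). Its relative Bnip3l, which clears mitochondria from maturing red cells, was at 282.3 and 288.3 CPM (0.03). The pair thus differed in ratio, and Bnip3l was much the more abundant.

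The wider list of low oxygen genes included transporters and enzymes as well as genes with other roles. Over the 28 measured genes of the hypoxia list the median log2 ratio was −0.10, and over the 19 that are not among the 10 genes it was −0.08, close to the −0.06 of all genes. Of those 19 genes 8 had an interval below 0, a share near the 39.8% of all genes, and 3 had one above it, beside 19.3% of all genes. Angptl4, a secreted inhibitor of lipoprotein lipase, was lower (8.54 and 5.01 CPM, −0.77), and Ddit4, an inhibitor of mTORC1 that many stresses induce, was higher (21.3 and 38.9 CPM, 0.87). Vegfa (−0.10, −0.24 to 0.03) and Car9 (−0.08, −0.53 to 0.37) could not be told apart between the libraries. Fam162a (−0.39) was lower and Mxi1 (0.19) higher by amounts within 1.5-fold. Among the sensors, Hif1a itself was at 69.0 and 66.8 CPM (−0.05, −0.11 to 0.02) and its partner Arnt at 11.2 and 12.5 CPM (0.16). Vhl, the ubiquitin ligase subunit that marks HIF for decay, stood at 0.01, while the oxygen sensing hydroxylases Egln1 (−0.29) and Egln2 (−0.27) were lower. Epas1, the gene of HIF-2α, had 1 UMI in the oil library and 0 in the tamoxifen library.

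Over all lists, 78 of 113 pathway genes were measured, 46 had an interval below 0 and 12 one above it, and 7 were lower and 3 higher past 1.5-fold. The shares of all genes tested were 39.8% and 19.3% for the intervals and 1.27% and 2.09% past 1.5-fold. Without the 10 genes, the median was −0.12 over 68 genes. By list, intervals below 0 were found for 14 of 19 glycolytic enzymes, 3 of 3 lactate transport genes, 9 of 9 pyruvate entry genes, 6 of 8 pentose phosphate genes, 15 of 28 hypoxia response genes, 3 of 11 control genes, 2 of 5 glucose transporters and 2 of 6 sensors.

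In single cells the 10 genes together took a median of 0.217% of the UMIs of a cell in the oil library and 0.158% in the tamoxifen library. The middle 50% of cells lay between 0.163% and 0.285% in the oil library and between 0.115% and 0.212% in the tamoxifen library. The ranges overlapped, and the whole distribution of the tamoxifen library lay lower, at percentile 5 (0.0914% and 0.0592%) as well as at percentile 95 (0.445% and 0.329%). Cells are not replicates, and these values describe the spread within each library.

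**Figure D3:**
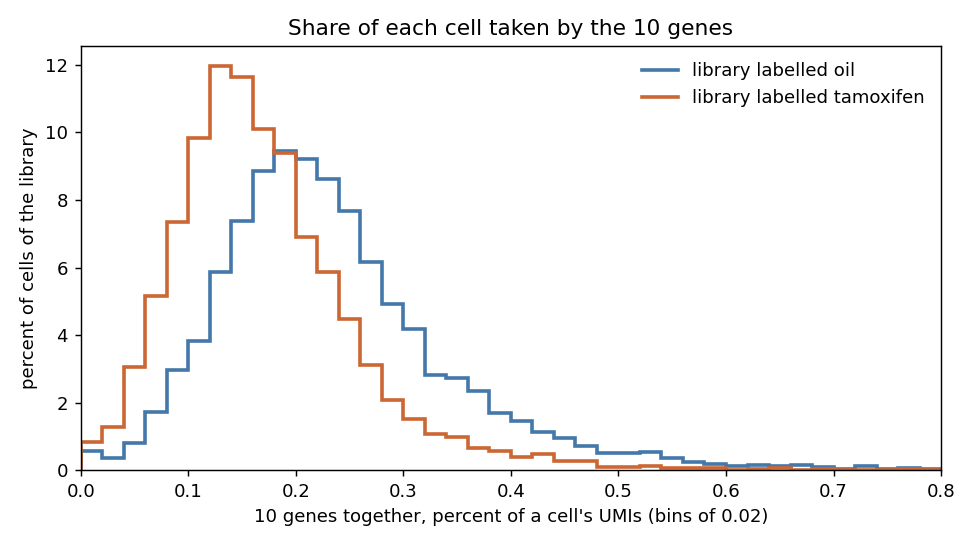
Distribution over cells of the percent of the UMIs of a cell that came from the 10 genes together, in bins of 0.02, for the library labelled oil (blue) and the library labelled tamoxifen (orange). The tamoxifen curve is shifted to the left with medians of 0.158% against 0.217%, and the curves overlap widely. Cells past the end of the axis were 0.234% and 0.0309%.

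The libraries also differed in cell state. By scores of S phase and G2/M genes on cells thinned to 3000 UMIs, 45.7% of oil cells and 60.2% of tamoxifen cells were called G1, 26.7% and 17.9% S, and 27.7% and 21.9% G2/M. Levels of the 10 genes differed between the phases, so they were compared within them. Slc16a3 had 47.0 and 20.2 CPM in G1 cells (−1.22), 40.3 and 20.5 CPM in S cells (−0.97) and 31.5 and 15.5 CPM in G2/M cells (−1.03), and all 3 intervals lay below 0. The gene was thus lower in the tamoxifen library in each phase.

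Aldoa, Bnip3, Slc2a1 and Pdk1 were highest in G1 in both libraries. Aldoa had 717 CPM in G1 against 451 in S and 408 in G2/M in the oil library, and 481, 342 and 275 CPM in the tamoxifen library. Bnip3 had 19.3, 7.04 and 5.76 CPM in the oil library, and 10.5, 3.57 and 4.44 CPM in the tamoxifen library. Slc2a1 (48.3 and 37.1 CPM in G1, 17.6 to 21.4 in the other phases) and Pdk1 (15.8 and 11.5 CPM in G1, 5.68 to 9.85 in the others) had the same order of G1 over the other phases. Ldha was highest in S phase in both libraries (1151 and 933 CPM), by 1.12-fold and 1.20-fold over its lowest phase, and Pgk1 was nearly flat across phases in the oil library (244 to 254 CPM). Hk2 was highest in S phase in both (4.97 and 5.77 CPM). In the oil library its S phase interval lay above those of the other phases, and in the tamoxifen library it overlapped that of G1.

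The ratios of the genes that were high in G1 lay farther from 0 at equal phase shares than in the pooled counts, which also differ in weighting. With each phase given its share over both libraries, the log2 ratio of Bnip3 was −0.83 in place of −0.55, that of Pdk1 −0.40 in place of −0.21, that of Slc2a1 −0.32 in place of −0.09 and that of Aldoa −0.54 in place of −0.42. The ratios of Slc16a3 (−1.13), Pgk1 (−0.60), Eno1 (−0.60) and Ldha (−0.37) moved by less than 0.1. Hk2 stood at 0.24. These values weight each phase by its number of cells and leave out the cells too shallow for thinning. Pooled ratios weight cells by their UMIs and use all kept cells. Equal weight for every cell, without phases, gave −0.68 for Bnip3, −0.19 for Pdk1, −0.18 for Slc2a1 and −0.44 for Aldoa. How much of the shifts goes with phase shares was therefore not tested. In G1 cells alone the Slc2a1 ratio was −0.38 (−0.51 to −0.25), an interval below 0 that the pooled value did not have. In G2/M cells it was −0.29 (−0.49 to −0.08), also below 0, and in S cells −0.07 (−0.29 to 0.16).

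Cells were also grouped into 10 clusters without the genes of the glycolysis and hypoxia lists, so that the groups do not rest directly on those genes. The libraries were merged and not integrated, so a cluster can still follow the library. Cluster 6 (Gm15892, Rtp4, Snhg10, Gm20234 and Crebrf), for example, held 69 oil and 881 tamoxifen cells. Clusters are given by number and by their leading genes, and cluster 8, with 38 oil cells, was below the minimum of 50 for a comparison. Slc16a3 had 71.8 CPM in the oil library and 43.7 CPM in the tamoxifen library in cluster 7 (led by Anxa2, Tppp3, Myadm and Gas2l3). Cluster 0 (S100a6, Klf2, Fxyd5, Mcpt1 and Mcpt4), the largest, had 68.5 and 40.9 CPM, and cluster 9, with few UMIs, 57.9 and 43.8 CPM. In clusters 1 to 6 it had 26.5 to 39.1 CPM in the oil library and 11.7 to 19.9 CPM in the tamoxifen library. The levels of clusters 0 and 7 did not differ beyond their intervals, and both stood above clusters 1 to 6 in each library.

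Slc16a3 was lower in the tamoxifen library in 9 of 9 clusters, and 8 of the 9 intervals lay below 0. The log2 ratio was lowest in cluster 4 (−1.51, −1.91 to −1.12) and highest among clusters with over 1000 cells in cluster 0 (−0.74, −0.95 to −0.54). Cluster 9, a group of shallow cells (median 1197.5 UMIs, 1.10% of them mitochondrial), held 13 and 4 Slc16a3 UMIs and gave −0.40 (−2.48 to 1.29). Cluster shares differed between the libraries, since cluster 0 held 26.3% and 21.2% of cells, cluster 7 held 4.21% and 1.70%, and cluster 6 held 1.01% and 13.6%. With each cluster given its share over both libraries, Slc16a3 had 42.5 and 23.0 CPM, a log2 ratio of −0.89. Each cluster is weighted there by its number of cells, whereas the pooled −1.04 weights cells by their UMIs. With every cell given the same weight and no clusters, the ratio was −1.075. How much of the difference goes with cluster shares was therefore not tested.

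**Figure D4:**
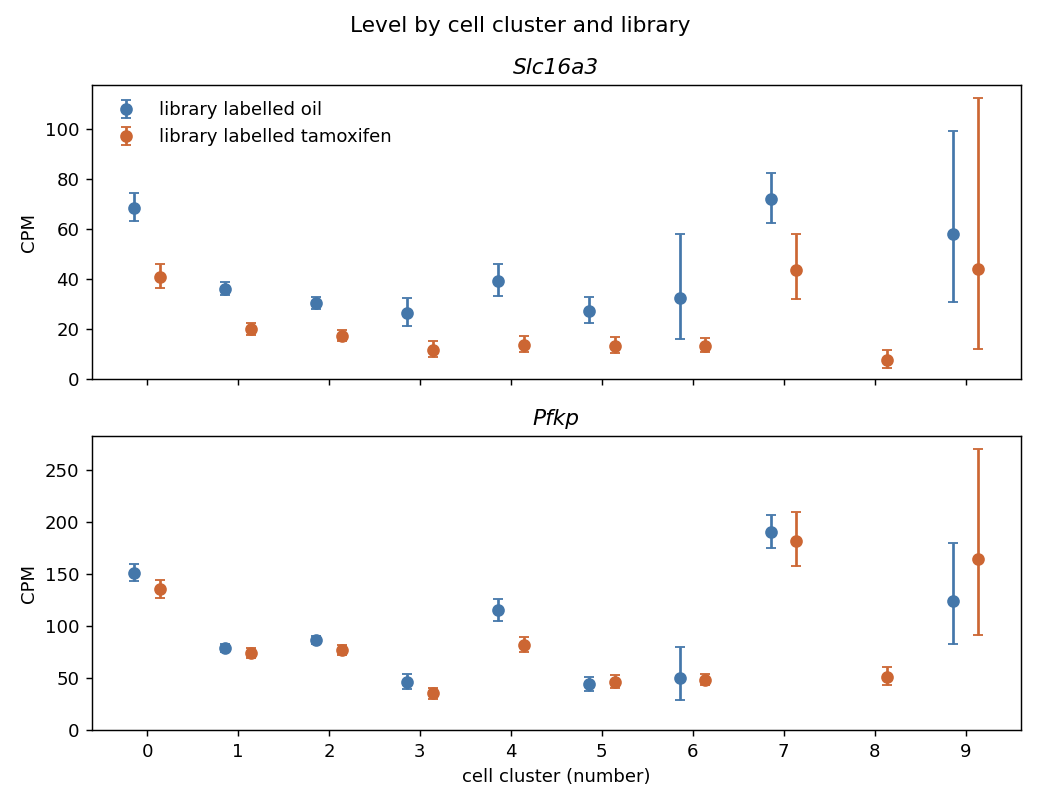
Level of Slc16a3 (top) and Pfkp (bottom) in CPM by cell cluster, in the library labelled oil (blue) and the library labelled tamoxifen (orange), with 95% Poisson intervals. Both genes have their highest points in clusters 0, 7 and 9. In cluster 9 the Slc16a3 intervals are wide and overlap those of clusters 1 to 6, and the oil Pfkp interval overlaps that of cluster 4. The tamoxifen point is lower for Slc16a3 in every cluster with both points, while the Pfkp points lie close together in clusters 1, 5, 6 and 7.

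Pfkp was also high in clusters 7, 0 and 9, and its ratio was smaller. It had 190.3 and 182.1 CPM in cluster 7, 151.3 and 135.9 CPM in cluster 0 and 124.6 and 164.2 CPM in cluster 9, and was lowest in clusters 3 and 5 (35.4 to 46.35 CPM over both libraries). Its ratio within clusters 0 to 7 ran from −0.48 to 0.06, and at equal cluster shares it was −0.16 in place of −0.33. Over the 19 sums of a cluster in a library, the Pearson correlation of log2(CPM + 1) between the genes was 0.78, and it was 0.91 within the 9 sums of the oil library and 0.91 within the 10 of the tamoxifen library. These points share libraries and depth, so the values are a description. Of the 45 pairs among the 10 genes, this was the 1 pair with a correlation over 0.9 in both libraries, and 13 pairs had opposite signs in the libraries.

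The clusters with the highest level varied among the other members. Slc2a1 was highest in cluster 4 (Ifit1, Actr3b, Tac2, Hba-a2 and Alas2, of which the last is the first enzyme of heme synthesis in red cell precursors and Hba-a2 a globin), at 92.5 and 77.5 CPM against 11.7 to 50.9 CPM in the other clusters compared. Bnip3 was highest in cluster 0 (24.9 and 14.1 CPM) and lowest in cluster 2, led by the histone genes Hist1h1b, Hist1h2ab, Hist1h2ap and Hist1h2ae and by Top2a (4.44 and 3.07 CPM). Aldoa was also highest in cluster 0 (895 and 700 CPM). Eno1 was highest in cluster 5 (Cpvl, Myct1, Gm17590, Prtg and Cib2), at 418.5 and 286.8 CPM. Ldha varied least over the clusters, by 1.40-fold in the oil library and 1.39-fold in the tamoxifen library, and Slc2a1 varied by 5.62-fold and 6.61-fold. The 10 genes therefore did not form 1 block over cell states.

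The enzymes were also lower within most clusters. Pgk1 and Eno1 were lower in 9 of 9 clusters, each with 8 intervals below 0, and Aldoa and Ldha in 8 of 9, with 8 and 7 intervals below 0. Ldha in cluster 3 (Cx3cr1, Cpa3, Creb3l1, Smarca1 and Abca1) was an exception, at 808 and 817 CPM (0.02, −0.05 to 0.09). Cluster 4 had the lowest ratio for Pgk1 (−0.99), Eno1 (−0.89), Ldha (−0.69), Pdk1 (−1.06) and Pfkp (−0.48) as well as for Slc16a3. There the 10 genes summed to 2639 CPM in the oil library and 1654 CPM in the tamoxifen library, a log2 ratio of −0.67 (−0.71 to −0.64). Hk2 was higher in 5 clusters and lower in 3, with the interval in cluster 0 below 0 (33 and 12 UMIs) and the others holding 0. No gene of the 10 had an interval above 0 in a cluster or phase.

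**Figure D5:**
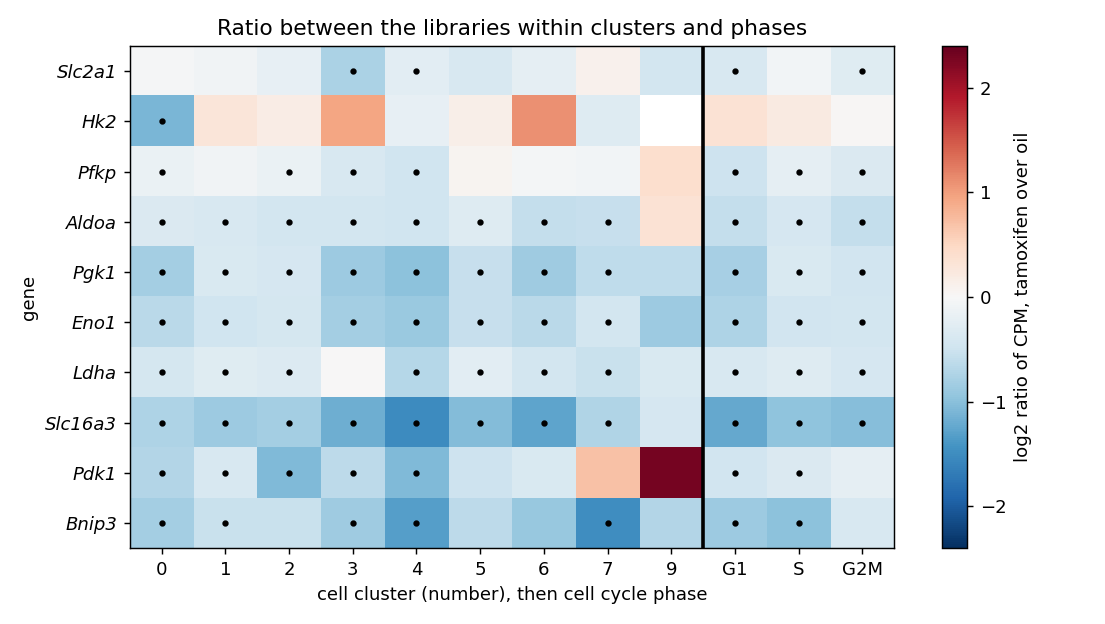
Log2 ratio of CPM, tamoxifen over oil, for each of the 10 genes (rows) in 9 clusters and 3 cell cycle phases (columns). Blue is lower and red higher in the library labelled tamoxifen, a dot marks a 95% counting interval that does not hold 0, and the empty square is Hk2 in cluster 9, which had 0 UMIs. Every dot is on a blue square, and the strongest red squares, Pdk1 in cluster 9 and Hk2 in clusters 3 and 6, carry no dot.

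The genes whose levels over the 19 sums were most like those of Slc16a3, out of 5844 genes with at least 20 CPM, were Fosb (r = 0.89), Actb (0.88), Lrrc58 (0.88), Gdi2 (0.87) and Smim7 (0.87). Fosb, an immediate early transcription factor, had 79.8 and 24.7 CPM (−1.69), Lrrc58 26.5 and 15.8 CPM (−0.75), and Actb, the beta actin gene, 4236 and 3442 CPM (−0.30). These sums include the difference between the libraries, so a gene that is lower in the tamoxifen library scores higher.

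The Slc16a3 difference was present at each depth of the cells. In 4 groups of equal size from the shallowest to the deepest cells of each library, the log2 ratio was −1.06, −1.18, −1.18 and −0.89, each with an interval below 0. Its level was highest in the shallowest group in both libraries (53.9 and 25.9 CPM) and lowest in the deepest (32.5 and 17.5 CPM).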

How the data were processed

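The authors mapped Chromium V3 3′ reads to mm10 with Cell Ranger 3.0.2 and deposited UMI counts per gene and barcode, which are raw counts with no normalization. Genes were located with GENCODE M21 and promoters taken from RefSeq (GRCm38.p6). Kept were barcodes with 500 or more genes and a mitochondrial share of 10% or less, 6838 of 7774 and 6472 of 7311. Scrublet (scanpy 1.11.5) marked 0% as doublets, so it has not worked here, and none were removed. Counts were summed per library, cluster or phase and given as CPM with exact Poisson intervals, ratios with exact conditional binomial intervals, and shares with Clopper-Pearson intervals. Cells were clustered with Seurat 5.3.0 (2000 variable features, 20 components, resolution 0.5) without genes that differed 1.5-fold between libraries and without mitochondrial, sex chromosome, interferon, MHC class I, glycolysis and hypoxia genes. Phases came from 43 S and 54 G2/M genes. The study named Seurat, and its own filters and clusters were not used. The interval routine was tested on simulated counts. Alternatives were TMM (edgeR 4.0.16), DESeq2 1.42.0 size factors, other filters, minimums, folds, clusterings and thinning depths. Named were the 10 genes, Usp18, list genes past 1.5-fold, the 3 highest and 3 lowest of a list where it adds to these, the 5 genes most like Slc16a3 and the 5 leading genes of a described cluster (1 of cluster 7 is not reported here), while Hk1, Pfkm, Gapdh, Ldhb, Pdk3, Bnip3l, Vegfa, Car9, Fam162a and Epas1 were added after their values were seen. The members and lists were chosen with earlier results of these data known. All matrix columns were mapped to a library.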

Additional observations from a re-analysis of the deposited data

How the results depend on the processing

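No paired analysis was possible because neither injection has a second library, and no replicate could be left out. Under the other cell filters and scalings, no pooled ratio of the 10 genes or Usp18 changed sign, and that of Slc16a3 ran from −0.96 to −1.09, inside its interval. Of the 81 such ratios of the other 9 genes, 59 stayed inside the main interval and 22 left it.

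Scaling moved the list medians. For the 10 genes, the glycolytic enzymes and the hypoxia list they were −0.34, −0.22 and −0.032 with TMM, −0.34, −0.22 and −0.034 with DESeq2 size factors, and −0.32, −0.21 and −0.017 on totals without mitochondrial and ribosomal protein genes, and in all 3 scalings 0 enzymes stayed lower past 1.5-fold, in place of 3. Genes lower past 1.5-fold were then 88 with TMM, 90 with DESeq2 size factors and 86 without those genes, and genes higher were 76.4% to 78.2% of those past the fold under the 3 scalings, in place of 62.1%. With every cell given the same weight, 4 of the 10 genes, 6 enzymes, 5 hypoxia genes and 231 of all genes were lower.

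Keeping the 673 oil and 771 tamoxifen cells with 1000 genes or more and a mitochondrial share of 5% or less gave 1.74 for Usp18, −0.42 for the median of the 10 genes, −0.42 for the enzymes and −1.01 for Slc16a3 at equal cluster shares, with 3 of the 10 genes, 5 enzymes and 295 of all genes lower. With up to 20% mitochondrial UMIs, 2 of the 10 genes were lower. A limit of 25% more in either library gave 7 of the 10 genes, 9 enzymes, 8 hypoxia genes and 1122 of all genes lower and 715 higher, and a fold of 2 gave 1 of the 10 genes, 0 enzymes, 1 hypoxia gene and 15 lower and 50 higher. A minimum of 20 UMIs gave 369 lower and 571 higher, and one of 500 UMIs 73 and 105.

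The difference in cells with a Slc16a3 UMI, −6.11 percentage points at 3000 UMIs, was −3.83 at 2000, −8.18 at 5000 and −11.9 without thinning, while the tamoxifen share was lower at each. At equal cluster shares the Slc16a3 ratio was −0.89, and between −0.82 and −0.95 with other clusterings, mostly outside the pooled interval, while at equal phase shares it was −1.13. Hk2 changed sign at equal cluster shares with all variable features kept, −0.02 in place of 0.13. At resolution 1.0 Slc16a3 was lower in 91.7% of 12 clusters, the exception holding 14 and 10 Slc16a3 UMIs (50.2 and 61.5 CPM). Alternatives with barcodes outside the kept cells gave no cluster values. The depth limits Hk2, Pdk1 and Bnip3 most, with 247 to 681 UMIs a library.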

Other observations

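Barcodes that failed the filters on genes and mitochondrial UMIs, 936 (oil) and 839 (tamoxifen), were counted separately. They held 175 and 63 UMIs of Slc16a3 (41.7 and 14.4 CPM), a log2 ratio of −1.53 with a counting interval of −1.97 to −1.11. Pgk1 stood at −0.64 (−0.80 to −0.48), Eno1 at −0.56 (−0.68 to −0.44), Aldoa at −0.46 (−0.55 to −0.37), Ldha at −0.33 (−0.40 to −0.26), Pfkp at −0.41 (−0.64 to −0.18) and Bnip3 at −0.68 (−1.28 to −0.09) in the same barcodes. The intervals of Slc2a1, Hk2 and Pdk1 held 0 there. These barcodes come from the same 2 libraries and are no replicates of the kept cells.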
